A study of Mus musculus with 4 samples.

Results

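Integrins are the receptors by which cells hold on to the matrix around them and to each other. The 34 genes described here are the 18 alpha subunits and 8 beta subunits of the mouse integrins, chosen by gene symbol (Itga followed by a number or by d, e, l, m, v or x, and Itgb1 to Itgb8), and 8 partners inside the cell: Ilk, Fermt1, Fermt2, Fermt3, Tln1, Tln2, Parva and Lims1. They were found among 31053 genes of 1 single-cell library, and the rule reads gene symbols alone, though it was set with earlier results of these data known. The library held the cells of 2 tibiae, pooled, of 1 male mouse at postnatal day 6 (P6), with the growth plate. The mouse was an Irx3/5 heterozygous control, Irx3 +/Δ and Irx5 +/-, and carried Col10a1Cre and the Rosa26-Tdtomato reporter, so that Cre driven from the Col10a1 gene of hypertrophic chondrocytes (HCs) marks HCs and the cells that descend from them. All cells come from this 1 mouse, so no comparison is between mice of different genotypes. The paper writes the Irx3 allele as +/ΔHC, a deletion made in HCs by the same Cre. HCs and HC-derived cells may thus also differ from other cells in Irx3 copies. In the comparisons of HCs and of HC-derived osteoblasts, this cannot be told apart from cell type or origin. The 4 entries deposited for this library were counted together, so there was 1 library of 1 mouse, no replicate and no test, and every interval below covers counting error only.

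Each integrin is a pair of 1 alpha and 1 beta subunit, and the pair decides what is bound: Itgb1 joins most of the alpha subunits to make receptors for collagen, laminin and fibronectin, Itgav with Itgb3 or Itgb5 binds proteins with an RGD motif such as vitronectin and osteopontin, and Itgb2 makes the receptors of white blood cells. The short tail of the beta subunit binds talin (Tln1, Tln2) and kindlin (Fermt1 to Fermt3), which switch the receptor to its binding state, and the complex of ILK, PINCH (Lims1) and parvin (Parva), which ties it to the actin skeleton. In bone, osteoclasts seal themselves to the mineral through Itgav with Itgb3, and chondrocytes hold the collagen of cartilage through Itga10 with Itgb1.

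The library held 14181 barcodes with 500 to 85279 UMIs, which are counts of captured transcripts. Of these barcodes 8256 were kept as cells, with a median of 13957.5 UMIs. These cells formed 20 named classes, and 221 cells in 4 clusters stayed without a name. Classes are named by marker genes, so that "osteoclast" below stands for osteoclast-like cells and so on, and the 34 genes were left out of the genes that drew the classes. The groups of main interest are 1932 chondrocytes (105 of them HCs and 344 pre-hypertrophic), 961 osteoblasts (541 immature and 420 mature), 813 endothelial cells and 99 smooth muscle cells or pericytes, 154 osteoclasts and 2922 leukocytes. Levels are in CPM: the UMIs of a gene, summed over the cells of a class, for every 1000000 UMIs summed there. Parentheses after a level hold its exact Poisson 95% interval, those after a share its exact Clopper-Pearson 95% interval, and those after a fold the exact 95% interval of the ratio given the counts. The osteoclasts held 3314 CPM of Acp5 and 2652 CPM of Ctsk, the enzymes of resorbing cells, and 69.8 CPM of the fusion gene Dcstamp, while Calcr was at 0. The plasmacytoid dendritic cell class also held the markers of other dendritic cells, 7 of 8 at 10 CPM or more with a sum of 7403 CPM, against 3542 CPM for its own 10 markers, so values of that class, such as those of Itgb7 and Itgax below, may belong to either. The 657 monocytes formed 2 clusters, of 214 and 443 cells, and neither had a listed monocyte marker among its 10 leading genes. The name of this class is therefore less certain. Top2a, a gene of dividing cells, was found in 97.9% and 92.3% of cells of the 2 red blood cell clusters. It was found in 80.97% of neutrophils, led by Ngp, Ltf and Chil3. The B cells formed clusters of 382, 314 and 39 cells, with Top2a in 69.4%, 89.2% and 48.7%, the first led by Vpreb1 and Igll1. Values of these classes below are thus largely those of dividing precursors and not of mature cells alone. Top2a was also found in 82.4% of promyelocytes, 70.6% of basophils or mast cells and 52.2% of plasmacytoid dendritic cells. Its share ran from 9.23% to 81.9% across the macrophage clusters and from 21.6% to 94.3% across the osteoclast clusters. In mature and immature osteoblasts it was 34.8% and 35.9%. Dividing cells are therefore part of these classes too. The summed level of 17 endothelial markers was 10690.1 CPM in the endothelial class and at most 724 CPM in any other.

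Promoters of 5 of the genes are shown because these genes mark the ends of the pattern described below: Fermt2 and Fermt3, the kindlins of attached cells and of blood cells, Itgb1, found in every class, Itgam, a leukocyte subunit, and Itga10, a subunit of chondrocytes and osteoblasts. Each line gives the 250 bases before the transcription start in the RefSeq table of build GRCm38.p6, 5′ to 3′ on the strand of the gene, with each CG pair in capitals.
Fermt2, chr14:45530066-45530315, minus strand: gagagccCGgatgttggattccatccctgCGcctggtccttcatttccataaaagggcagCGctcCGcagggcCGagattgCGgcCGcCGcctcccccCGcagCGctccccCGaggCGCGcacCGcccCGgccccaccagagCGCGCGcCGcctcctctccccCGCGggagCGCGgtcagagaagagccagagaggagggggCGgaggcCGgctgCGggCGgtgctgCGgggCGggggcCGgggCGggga
Fermt3, chr19:7019470-7019719, minus strand: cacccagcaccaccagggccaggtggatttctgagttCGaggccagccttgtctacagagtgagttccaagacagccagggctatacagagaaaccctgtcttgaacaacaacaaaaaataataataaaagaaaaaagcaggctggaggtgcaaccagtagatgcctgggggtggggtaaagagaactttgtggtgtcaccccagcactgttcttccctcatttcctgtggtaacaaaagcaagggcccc
Itgb1, chr8:128685404-128685653, plus strand: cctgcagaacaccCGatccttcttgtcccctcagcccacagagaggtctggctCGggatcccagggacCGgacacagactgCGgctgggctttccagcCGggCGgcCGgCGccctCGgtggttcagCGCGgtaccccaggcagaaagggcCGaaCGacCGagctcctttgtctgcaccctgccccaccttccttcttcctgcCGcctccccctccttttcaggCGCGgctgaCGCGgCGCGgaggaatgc
Itgam, chr7:128062390-128062639, plus strand: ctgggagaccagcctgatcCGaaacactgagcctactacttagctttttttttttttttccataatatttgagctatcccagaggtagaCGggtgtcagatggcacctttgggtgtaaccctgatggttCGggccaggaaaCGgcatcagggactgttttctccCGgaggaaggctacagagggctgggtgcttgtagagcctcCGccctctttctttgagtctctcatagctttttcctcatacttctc
Itga10, chr3:96645334-96645583, plus strand: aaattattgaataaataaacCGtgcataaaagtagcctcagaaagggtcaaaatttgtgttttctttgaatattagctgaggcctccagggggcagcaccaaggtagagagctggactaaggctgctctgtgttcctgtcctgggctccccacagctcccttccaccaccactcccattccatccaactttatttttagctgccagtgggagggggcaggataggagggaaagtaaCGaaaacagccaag

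The Fermt2 stretch held 31 CG pairs and that of Fermt3 held 1. The Itgb1 stretch held 21, Itgam 6 and Itga10 2, against a median of 6 over the 32851 promoters of the table. CG is its own reverse complement, so the count is the same on both strands. At least 31 CG pairs stood in 5.19% of all promoters, and 1 or none in 18.82%. The table held promoters of 24 of the 34 genes.

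Of the 34 genes, 30 reached 10 CPM in at least 1 class. The other 4 were Itgb8, at most 8.65 CPM in immature osteoblasts, Itgae, the alpha subunit of lymphocytes in epithelia, at most 4.04 CPM in T or NK cells, Itgb6, at most 1.15 CPM in basophils or mast cells, and Fermt1, the kindlin of epithelia, at most 0.515 CPM in B cells. Tln1, Ilk, Lims1 and Itgb1 reached 10 CPM in all 20 classes. Smooth muscle cells or pericytes held the most genes at that level, 19 of 34, and red blood cells the fewest, 6 of 34. The T or NK class had 30 cells, and the chondrocyte markers summed to 10916 CPM in it, so its values carry little weight.

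**Figure D1:**
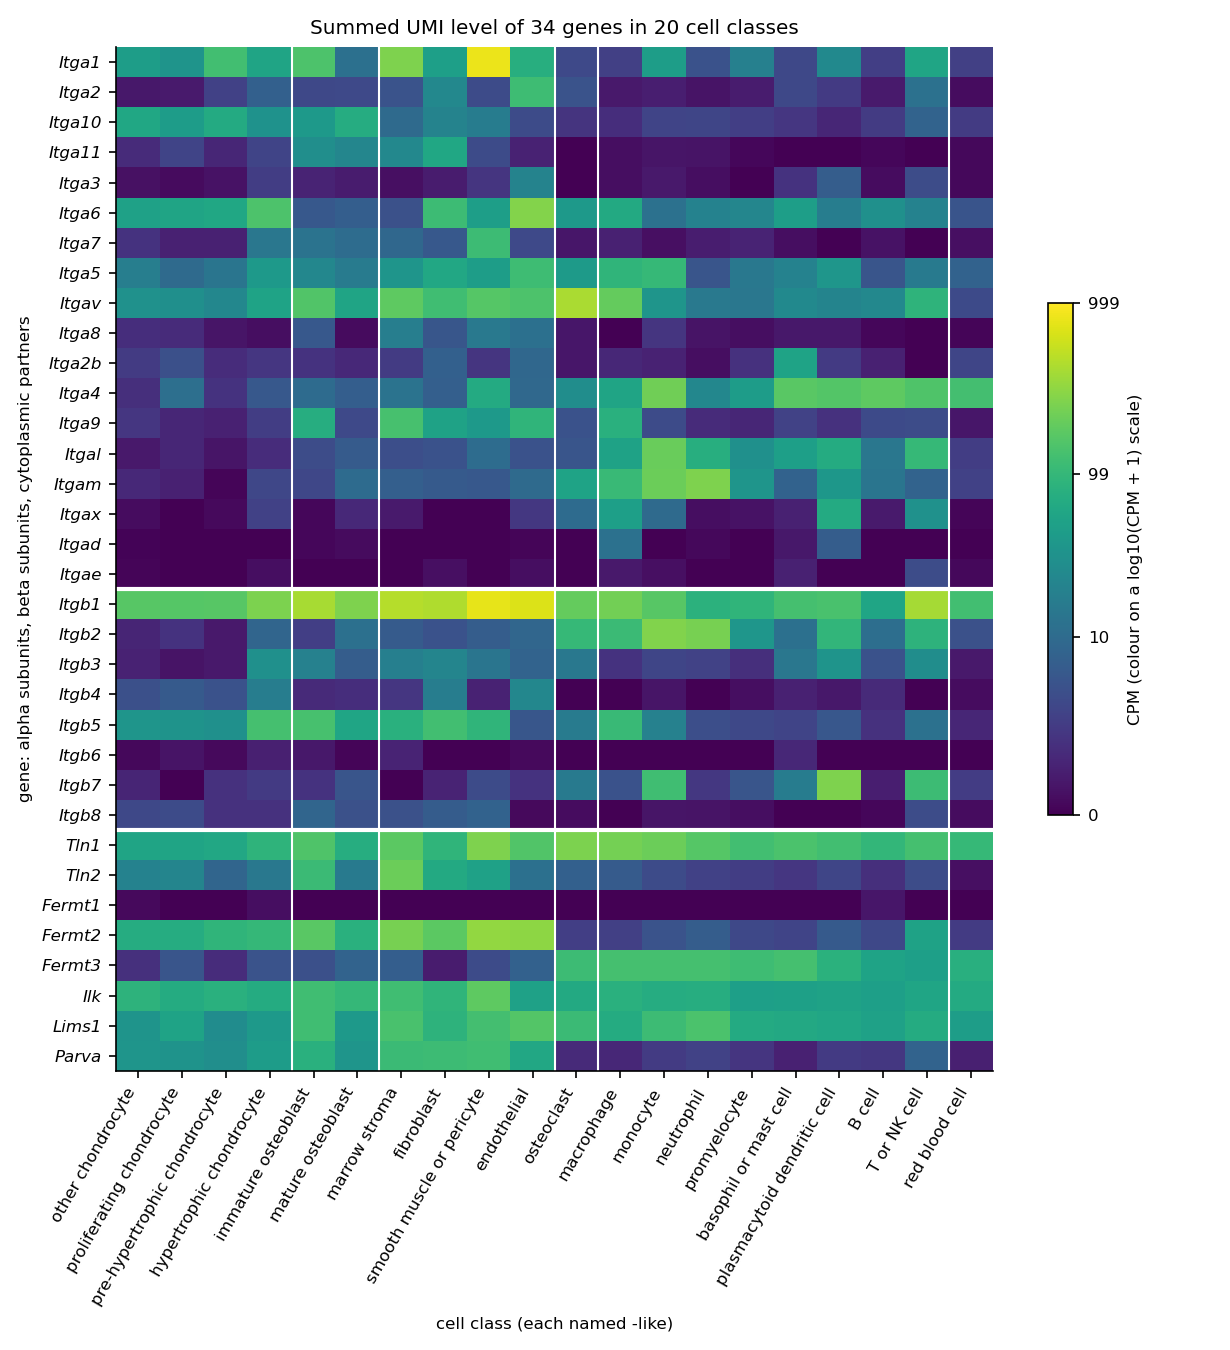
Level of the 34 genes (rows: alpha subunits, beta subunits, cytoplasmic partners) in 20 cell classes (columns), as summed UMIs in CPM on a log10(CPM + 1) colour scale. Itgb1, Tln1, Ilk and Lims1 are bright in every column. Itgb2, Itgam, Itgal and Fermt3 have their brightest columns among blood cells, and Fermt2 and Parva among attached cells.

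Among the beta subunits, Itgb1 was highest in smooth muscle cells or pericytes, at 782 CPM (729 to 838), and in endothelial cells, at 698 CPM (681 to 714). It was lowest in B cells, at 57.2 CPM (52.02 to 62.8). Itgb1 gave 93.6% (93.02% to 94.2%) of all beta subunit UMIs in endothelial cells but 25.2% (23.4% to 27.1%) in neutrophils and 25.7% (22.9% to 28.6%) in plasmacytoid dendritic cells. In neutrophils 71.9% of these UMIs came from Itgb2, and in plasmacytoid dendritic cells 49.2% came from Itgb7. Itgb7 pairs with Itga4 to make the receptor that brings lymphocytes to the gut, and both subunits were present in plasmacytoid dendritic cells, at 259.6 CPM (237 to 284) and 156 CPM (139 to 176). Shares set UMIs of several genes side by side without scaling by length, so they serve to compare classes. Monocytes held all of Itgb1, Itgb2 and Itgb7, at 28.8%, 46.5% and 20.6% of beta subunit UMIs. Their clusters of 214 and 443 cells held 441 and 210 CPM of Itgb2, and 60.4 and 138 CPM of Itgb7.

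Itgb5, the RGD-binding partner of Itgav, had its largest share in HCs, with 28.9% (26.7% to 31.3%) of beta subunit UMIs. The share was 15.1% in pre-hypertrophic chondrocytes, 22.9% in immature osteoblasts and 23.98% in macrophages. In endothelial cells it was 0.726% (0.544% to 0.949%), the lowest value of any class. Itgb3 was low in every class: its level was highest in plasmacytoid dendritic cells, 34.6 CPM (26.6 to 44.2), and next in HCs, 30.6 CPM (25.1 to 36.98), which cannot be told apart by their intervals. Itgb4, the partner of Itga6 in hemidesmosomes, reached 23.3 CPM in endothelial cells, 17.6 CPM in HCs and 17.5 CPM in fibroblasts.

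**Figure D2:**
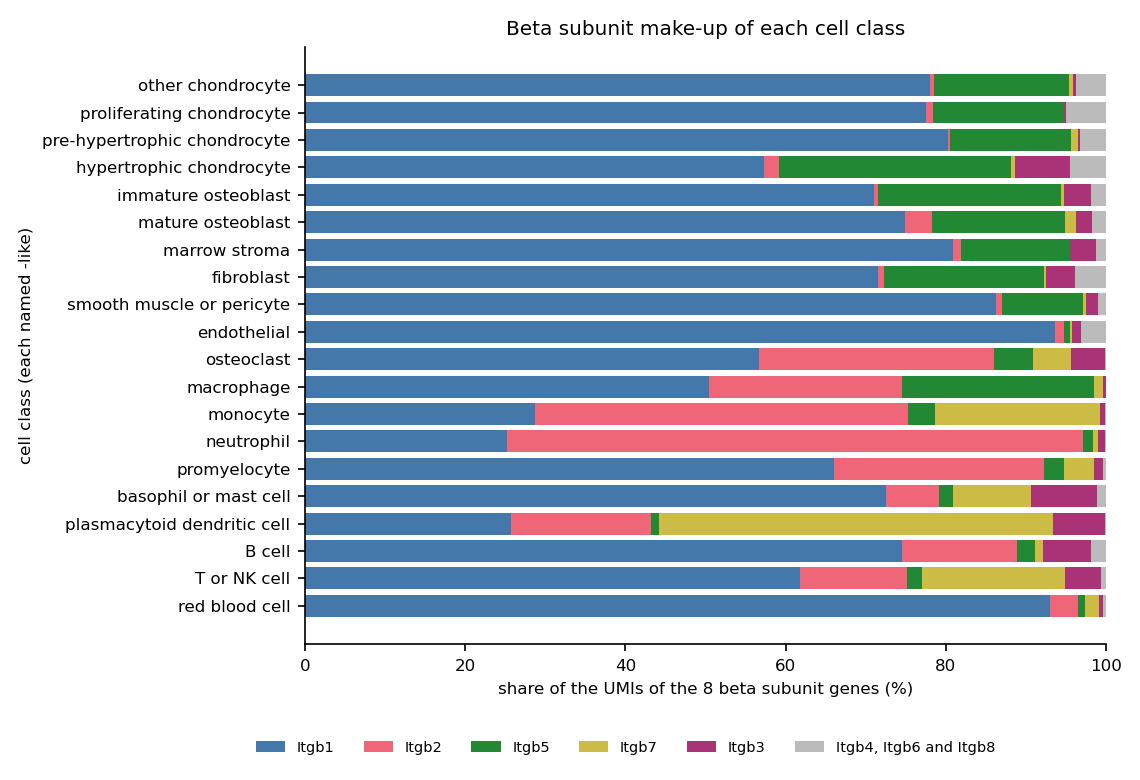
Share of the UMIs of the 8 beta subunit genes (x axis, %) that came from each gene, in 20 cell classes (y axis). Itgb1 fills 93.6% of the endothelial bar, Itgb2 71.9% of the neutrophil bar, Itgb7 49.2% of the plasmacytoid dendritic cell bar and Itgb5 28.9% of the HC bar.

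The 4 collagen-binding alpha subunits were split between the attached cells. Itga1, which prefers the collagen IV of basement membranes, was highest in smooth muscle cells or pericytes, at 816 CPM (762 to 872), then in marrow stroma, at 260.3 CPM (243 to 279). Itga2 was highest in endothelial cells, at 116 CPM (109 to 123), and next in fibroblasts, at 23.9 CPM (18.7 to 30.2). Itga11, a receptor for fibrillar collagen I, was highest in fibroblasts, at 59.99 CPM (51.5 to 69.5), followed by immature osteoblasts, at 28.97 CPM (25.1 to 33.3). Itga10 was highest in mature osteoblasts, at 70.97 CPM (65.5 to 76.7), and in pre-hypertrophic chondrocytes, at 67.2 CPM (62.3 to 72.5), with overlapping intervals.

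The make-up of this family differed from class to class. Itga1 gave 97.03% (95.7% to 98.05%) of the collagen-binding alpha UMIs in smooth muscle cells or pericytes. Itga2 gave 59.3% (57.05% to 61.5%) in endothelial cells, where most of the rest was Itga1. Itga10 gave 65.2% (62.1% to 68.2%) in mature osteoblasts and 55.96% (54.2% to 57.8%) in chondrocytes outside the named stages. Fibroblasts were the class with the largest share of Itga11, 39.1% (34.6% to 43.8%). In GENCODE M21, exons of Itga1 and Itga10 overlap exons of the predicted genes Gm49395 and Gm42957 on the same strand, as those of Itgam do with Gm49368, so the counting could split or drop reads between the genes of each pair and their levels are uncertain to that extent.

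The laminin-binding alpha subunits were each highest in a class of the vessel wall. Itga6 was highest in endothelial cells, at 276 CPM (266 to 286), and next in HCs, at 142 CPM (130.2 to 155), and reached 10 CPM in 16 of 20 classes, while immature and mature osteoblasts held 5.62 and 6.96 CPM. Itga3 passed 10 CPM in endothelial cells alone, at 20.9 CPM (18.2 to 24.01). Itga7, the laminin receptor of muscle, was at 114 CPM (94.8 to 137) in smooth muscle cells or pericytes and next in HCs, at 14.5 CPM (10.8 to 19.02).

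Of the subunits that bind RGD motifs, Itgav was highest in osteoclasts, at 413 CPM (392 to 433), and its next level, 192 CPM (178 to 208), was in macrophages. Itga5, the fibronectin receptor, was at 115 CPM (109 to 122) in endothelial cells, 102 CPM (93.97 to 109.7) in monocytes and 5.15 CPM in neutrophils. Itga8 stayed low, with 17.9 CPM (13.5 to 23.4) in marrow stroma as its highest level. Itga2b, the alpha subunit of the platelet fibrinogen receptor, was at 53.7 CPM (46.3 to 61.97) in basophils or mast cells and under 10 CPM in the other 19 classes. The basophils or mast cells also held 14.6 CPM of its partner Itgb3. Of 8 megakaryocyte markers, 3 reached 10 CPM there, with Gp6 at 0, and they summed to 931 CPM. Pf4, 1 of these markers, was among the leading genes of the cluster. The part of these markers' cells in the result was not tested.

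Itga9 and Itga4 are close relatives that bind Vcam1 and tenascin or fibronectin. Itga9 was highest in marrow stroma, at 132 CPM (119 to 145), in endothelial cells, at 89.9 CPM (84.03 to 96.01), and in macrophages, at 80.1 CPM (70.8 to 90.2). Itga4 was highest in monocytes, at 221 CPM (209 to 233), and in B cells, at 178 CPM (169 to 188), and red blood cells held 127 CPM (121 to 134). Of the 2 monocyte clusters, that of 214 cells held 419 CPM of Itga4 and that of 443 cells 154 CPM. Among attached cells, smooth muscle cells or pericytes had the highest Itga4 level, 66.4 CPM (51.6 to 83.99). Both genes were present there and in macrophages, with Itga9 at 41.4 CPM in the former and Itga4 at 55.9 CPM in the latter.

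Among the leukocyte alpha subunits, each had its own order of classes. Itgal, the alpha subunit of the adhesion receptor LFA-1, was highest in monocytes, at 206 CPM (195 to 217), and was at 75.8 CPM in neutrophils and 14.4 CPM in B cells. Itgam, the alpha subunit of the complement receptor Mac-1, was highest in neutrophils, at 259.8 CPM (248 to 272), and was at 213 CPM in monocytes. The 2 monocyte clusters differed, a split read after the values were seen. Itgal was at 416 CPM in the cluster of 214 cells and 135 CPM in that of 443 cells, and Itgam at 290 and 187 CPM. Itgax, a marker of dendritic cells, was highest in plasmacytoid dendritic cells, at 66.4 CPM (55.1 to 79.3), and in macrophages, at 48.2 CPM (41.1 to 56.2). Itgad passed 10 CPM in macrophages alone, at 12.1 CPM (8.69 to 16.4), and among their clusters it was highest in the 69 cells led by C1qc, C1qa and C1qb, at 41.7 CPM. Its exons overlap the pseudogene Gm17831 on the same strand, so this low level is uncertain.

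The 3 kindlins split the classes most plainly. Fermt3, the kindlin of blood cells, gave between 93.1% and 97.99% of kindlin UMIs in osteoclasts, red blood cells and every leukocyte class other than T or NK cells, where 12 of 25 kindlin UMIs were Fermt3. In chondrocytes, osteoblasts, stroma, fibroblasts, pericytes and endothelial cells, Fermt2 took its place and Fermt3 gave at most 9.26% (7.30% to 11.5%), in mature osteoblasts, where 9.29% of the barcodes were marked as doublets. Without those barcodes mature osteoblasts held 29 UMIs of Fermt3 and 621 of Fermt2. Fermt2 was highest in smooth muscle cells or pericytes, at 328 CPM (294 to 365), and in endothelial cells, at 307 CPM (296 to 318). Fermt3 was at 131 CPM in monocytes, 112 CPM in osteoclasts and 76.8 CPM in red blood cells.

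Parva, alpha-parvin, had the same split, from 118 CPM (98.3 to 141) in smooth muscle cells or pericytes to 0.860 CPM (0.412 to 1.58) in red blood cells. Parvg, the parvin of blood cells, gave 91.4% (87.9% to 94.2%) of the UMIs of the 3 parvin genes in neutrophils. In promyelocytes its share was 91.99% (88.6% to 94.7%). It was 87.1% in basophils or mast cells, 86.7% in plasmacytoid dendritic cells and 83.5% in B cells. The share was lower in monocytes, at 63.7%, and in macrophages, at 48.96%. Red blood cells, at 15.1%, and osteoclasts, at 9.54% (6.27% to 13.8%), were both low. In T or NK cells 4 of 7 parvin UMIs were Parvg. Osteoclasts held Fermt3 at 112 CPM against 129.7 CPM in macrophages, but Parvg at 6.49 against 27.8 CPM, and most of their parvin UMIs came from Parvb. Tln2, the second talin, gave 54.8% (51.9% to 57.7%) of talin UMIs in marrow stroma, 42.1% in fibroblasts and 42.03% in immature osteoblasts, and at most 3.03% in any blood cell class. Tln1, Ilk and Lims1 varied less, between 55.7 and 263 CPM, 47.8 and 178 CPM, and 27.8 and 158 CPM.

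**Figure D3:**
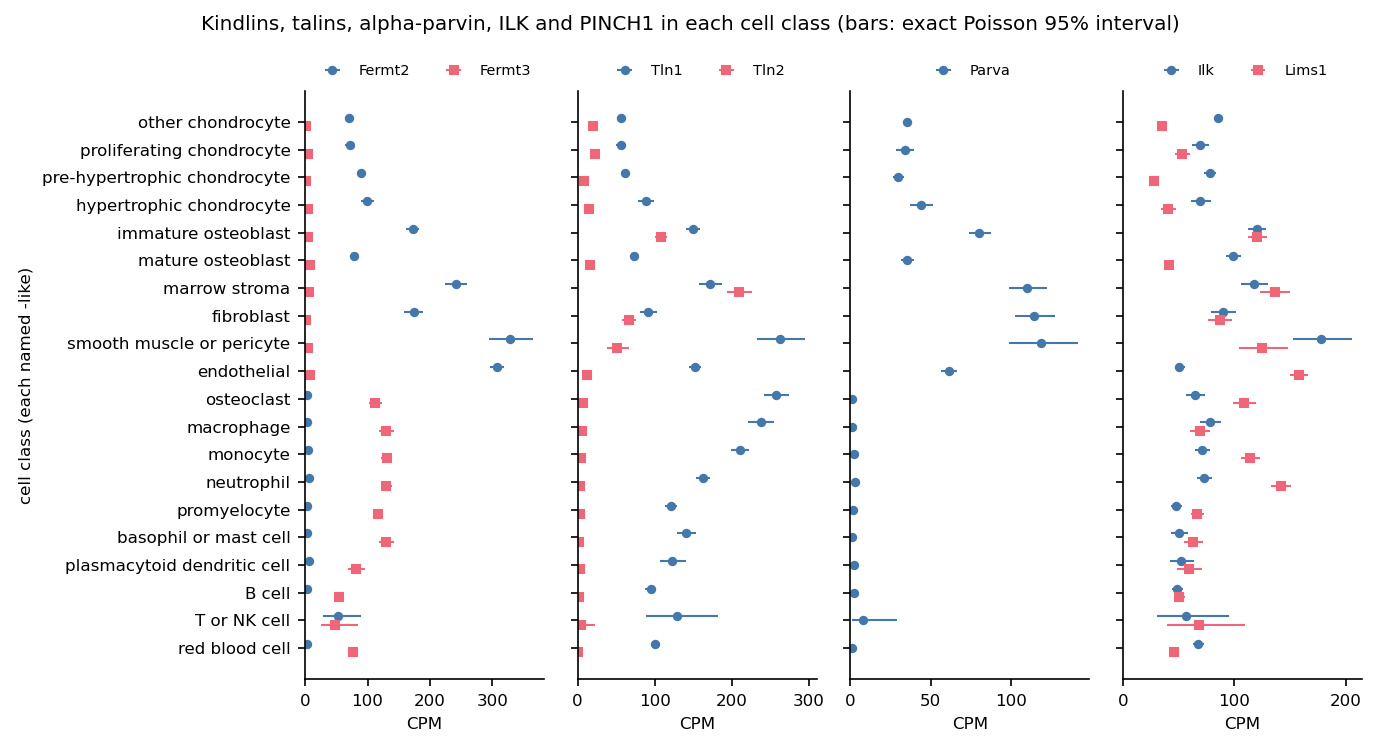
Level (x axis, CPM) of Fermt2 and Fermt3, Tln1 and Tln2, Parva, and Ilk and Lims1 in 20 cell classes (y axis), with exact Poisson 95% intervals as bars. Fermt3 lies between 53.7 and 131 CPM in osteoclasts and leukocytes other than T or NK cells, where Fermt2 and Parva are near 0.

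The question of the first set of comparisons was which of the genes set each group of cells apart from all other cells kept. A gene was compared where it reached 10 CPM in either group, and it counted as past 2-fold when the ratio, with 1 CPM added to each side, was at least 2. Chondrocytes were marked by what they lacked. Of 21 genes compared, 1 was higher and 12 were lower past 2-fold, where 11.0% of all genes compared were higher and 27.8% lower, or 38.8% in either direction. The median log2 ratio was -1.19 over the 21 genes and -0.42 over all genes compared. The higher gene was Itga10, at 58.5 against 16.2 CPM, or 3.61-fold (3.39 to 3.85). The leukocyte subunits Itgam, Itgb2 and Itgal were 45.6-fold, 35.2-fold and 46.2-fold lower. Among subunits of other attached cells, Itga9 was 15.9-fold (12.6 to 20.2) lower and Itga2 9.57-fold (7.55 to 12.3) lower, and Itgav was at 31.6 against 80.6 CPM. Fermt2, at 77.5 against 77.8 CPM, and Ilk, at 80.9 against 73.4 CPM, were nearly level between the groups.

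The 18 alpha subunits summed to 222 CPM in chondrocytes outside the named stages and to 369 CPM in HCs, between 159 CPM in red blood cells, the lowest sum, and 1350.4 CPM in smooth muscle cells or pericytes, the highest. The 8 beta subunits summed to 213 and 446 CPM in the same chondrocytes, against 76.8 CPM in B cells and 906 CPM in smooth muscle cells or pericytes. Chondrocytes spend many of their UMIs on cartilage matrix genes, and the 16 chondrocyte markers found summed to 111384 CPM in chondrocytes outside the named stages, and 25553 CPM in HCs. The part of these genes in the sums was not tested.

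HCs are the enlarged cells at the cartilage end that meets bone, and pre-hypertrophic chondrocytes come just before them. Here 16 genes were compared, and 7 were higher and 2 lower in HCs past 2-fold, where 23.0% of all genes were higher and 5.51% lower, or 28.6% in either direction. The median log2 ratio was 0.67 over the 16 genes and 0.49 over all genes. Itgb3 had the largest ratio, with 0.595 CPM (0.218 to 1.30) in pre-hypertrophic chondrocytes and 30.6 CPM (25.1 to 36.98) in HCs, 51.5-fold (22.9 to 143) higher. Among the other subunits that bind RGD motifs, Itgb5 was 4.16-fold (3.59 to 4.82) higher, Itgav 2.30-fold (1.89 to 2.80) higher and Itga5 2.94-fold (2.31 to 3.76) higher, while Itga8 and Itgb8 stayed under 10 CPM in both classes. The laminin receptors Itga6, Itga7 and Itgb4 were 2.35-fold, 16.2-fold and 3.69-fold higher. The 2 lower genes were the collagen receptors Itga1 and Itga10, with Itga1 at 55.3 CPM in HCs against 124 CPM and Itga10 at 32.6 against 67.2 CPM. The other 2 collagen-binding subunits stayed under 10 CPM in both classes, with Itga2 at 7.37 against 2.78 CPM and Itga11 at 3.12 against 1.09 CPM. In alternative settings Itgav stayed past 2-fold in 4 of 10, Itga10 in 5 of 10 and Itga1 in 6 of 10. The other higher genes did so in at least 9 of 10, and every call kept its direction.

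Thinned to 5000 UMIs per cell, 10.48% (5.35% to 17.97%) of HCs held an Itgb3 UMI and 0.583% (0.0707% to 2.09%) of pre-hypertrophic chondrocytes did. The median depths were 33065 and 28195 UMIs. Of 14 neutrophil markers, 10 were at 10 CPM or more in HCs and 5 in pre-hypertrophic chondrocytes, with none at 0 in HCs and Ly6g at 0 in pre-hypertrophic chondrocytes, and they summed to 4945 against 129.8 CPM. Neutrophils themselves held 2.94 CPM of Itgb3 and 4.27 CPM of Itgb5. Of 12 osteoclast markers, 6 and 3 reached 10 CPM, with Calcr and Oscar at 0 in HCs and Ocstamp, Dcstamp and Calcr at 0 in pre-hypertrophic chondrocytes, and they summed to 331 against 169 CPM. Osteoclasts held 14.8 CPM of Itgb3, and 35.8 CPM in the cluster of them led by Ctsk. Of 10 monocyte markers, 1 reached 10 CPM in each class, and they summed to 667 against 49.7 CPM, of which F13a1, among the leading genes of the HC cluster, made 631 CPM in HCs. Of 12 macrophage markers, 1 reached 10 CPM in each class, with sums of 36.02 and 23.7 CPM and Adgre1, Cd163 and Vsig4 at 0 in HCs. The part of these markers' cells in the differences between HCs and pre-hypertrophic chondrocytes was not tested, and none of the HCs was marked as a doublet.

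Osteoblasts differed from the rest in both directions. Of 24 genes compared, 8 were higher and 8 lower past 2-fold, where 8.86% of all genes were higher and 14.7% lower, or 23.6% in either direction. For all genes the median log2 ratio was -0.15, and for the 24 genes 0.49. The higher genes were Itga11, Itga7 (4.08-fold), Tln2 (3.38-fold), Itgb5 (3.14-fold), and Itgb3, Itga10, Itga9 and Parva (2.06-fold to 2.30-fold). Itga9 was high in the immature stage alone, at 73.1 CPM against 3.59 CPM in mature osteoblasts. In alternative settings Itga9 stayed past 2-fold in 4 of 10, Itgb3 in 4 of 9, Parva in 6 of 10 and Itga10 in 7 of 10. Itga11 was at 25.4 against 2.92 CPM, 8.68-fold (7.50 to 10.04) higher, and Itgb5 at 89.9 against 28.6 CPM. Of the lower genes, Itga6 was at 6.37 against 61.4 CPM, 9.63-fold (7.91 to 11.8) lower, and the other 7 were Itga2 and the blood cell genes Itgb7, Itgal, Itgam, Itgb2, Itga4 and Fermt3.

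**Figure D4:**
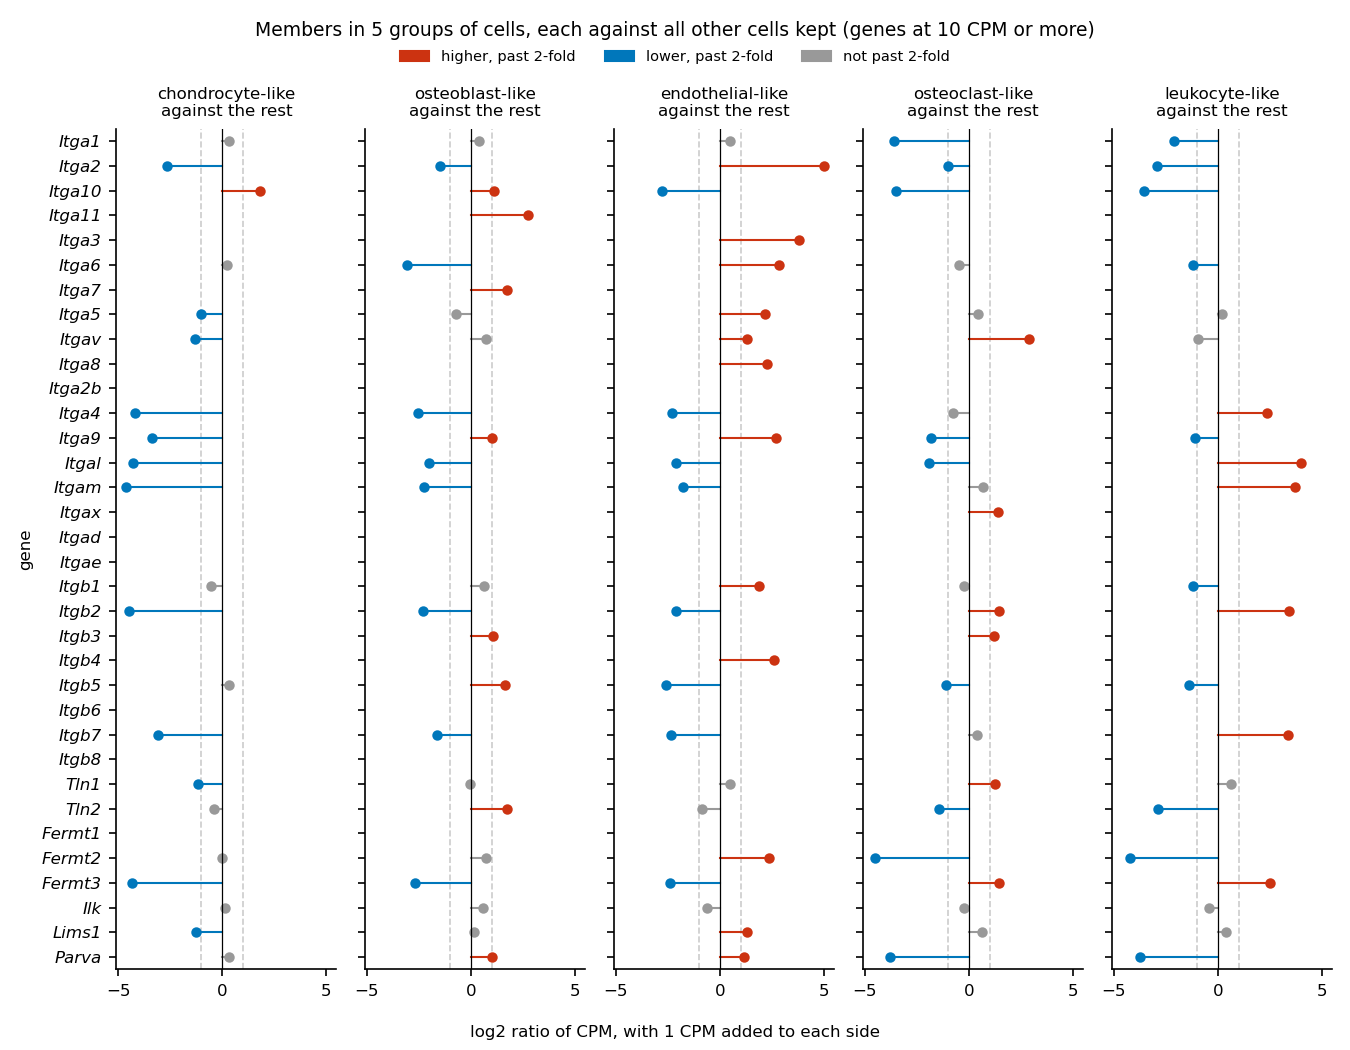
Log2 ratio of CPM, with 1 CPM added to each side (x axis), of each gene (y axis) in chondrocytes, osteoblasts, endothelial cells, osteoclasts and leukocytes against all other cells kept; red and blue points are higher and lower past 2-fold, grey points are not past 2-fold, and genes under 10 CPM in both groups have no point. Itga10 is the only red point of chondrocytes, and Fermt2 and Parva are blue in osteoclasts and leukocytes.

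Between immature and mature osteoblasts, 19 genes were compared. In mature osteoblasts 10 were lower and 2 higher past 2-fold, where 14.7% of all genes were lower and 5.02% higher, or 19.7% in either direction, and the median log2 ratio was -1.02 over the genes compared and -0.43 over all genes. Itga9 was 20.3-fold (14.2 to 30.05) lower, at 3.59 CPM in mature and 73.1 CPM in immature osteoblasts. Itga1 was 12.2-fold (9.97 to 15.1) lower, at 11.7 against 143 CPM, and Tln2 6.96-fold (5.80 to 8.40) lower, at 15.6 against 109 CPM. Of the other partners, Lims1 was lower by 2.94-fold, Parva by 2.27-fold, Fermt2 by 2.20-fold and Tln1 by 2.05-fold. These stayed past 2-fold in 10, 9, 9 and 7 of 10 alternative settings, in that order. Col1a1 was at 62620 CPM in mature and 8140 CPM in immature osteoblasts, and its part in the lower levels was not tested. Itgav, Itgb3 and Itgb5, the RGD receptors that bind the bone proteins osteopontin and bone sialoprotein, were 2.71-fold, 2.93-fold and 2.29-fold lower. Itga10, at 70.97 against 40.9 CPM, was not past 2-fold, and Ilk was nearly level, at 99.2 against 120.2 CPM.

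The 2 higher genes were the leukocyte subunits Itgb2, at 11.8 against 2.59 CPM, and Itgam, at 10.1 against 3.31 CPM. Of the mature osteoblasts, 9.29% were marked as doublets (barcodes that may hold 2 cells), and 2.22% of the immature ones. Without the marked barcodes Itgb2 was at 3.08 CPM (1.98 to 4.59) in 381 mature and 2.56 CPM (1.49 to 4.10) in 529 immature osteoblasts, and Itgam at 6.68 and 3.31 CPM. The sign of the Itgb2 difference also depended on how the cells were clustered, with a log2 ratio of 1.83 as above and -1.30 when the 34 genes were allowed to draw the clusters. Of 10 monocyte markers, 6 and 1 reached 10 CPM in mature and immature osteoblasts, and they summed to 131 and 32.6 CPM, with Klra2 at 0 in immature osteoblasts. Of 12 macrophage markers, 6 and 3 reached 10 CPM, with sums of 165 and 66.7 CPM and Vsig4 at 0 in both, and of 14 neutrophil markers 8 and 6 did, with sums of 1196 and 1585 CPM and Ly6g at 0 in immature osteoblasts. The part of these cells in the result was not tested.

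Osteoblasts descended from HCs were compared with the other osteoblasts, since the reporter was made to follow this lineage. Cells with more than 14 UMIs of the reporter's WPRE sequence counted as HC-derived, which gave 251 of 961 osteoblasts, and 84.8% of the HCs passed the same limit. Of 16 genes compared, none was past 2-fold in either direction, where 0.779% of all genes were higher and 1.58% lower, or 2.36% in either direction. The median log2 ratio was -0.09 over the 16 genes and 0.01 over all genes. The ratio farthest from level was that of Itgb3, at 16.6 against 10.6 CPM, or 1.57-fold (1.17 to 2.10) higher in HC-derived cells. Itgb1 was at 322 against 326 CPM, 1.01-fold (0.955 to 1.08) lower. Itgav was at 99.97 against 97.5 CPM, 1.03-fold (0.919 to 1.14) higher, and Tln2 at 55.7 against 56.6 CPM, 1.02-fold (0.880 to 1.18) lower. For these 3 genes the intervals ended short of 2-fold in both directions.

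The groups differed in stage, so the comparison was also made within each stage, an alternative chosen after seeing the data. Within immature osteoblasts (113 against 428 cells) none of 17 genes was past 2-fold, where 1.48% of all genes were higher and 2.51% lower, or 3.99% in either direction, and Itgb3 was at 25.5 against 17.7 CPM. Within mature osteoblasts (138 against 282 cells) Itgb3 alone was past 2-fold, at 11.4 against 4.29 CPM, 2.65-fold (1.54 to 4.62) higher, where 0.730% of all genes were higher and 1.15% lower, or 1.88% in either direction. In both stages Itgb3 had the highest ratio of the genes compared, and in the immature stage its interval, 1.44-fold (0.986 to 2.07), included 1.

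**Figure D5:**
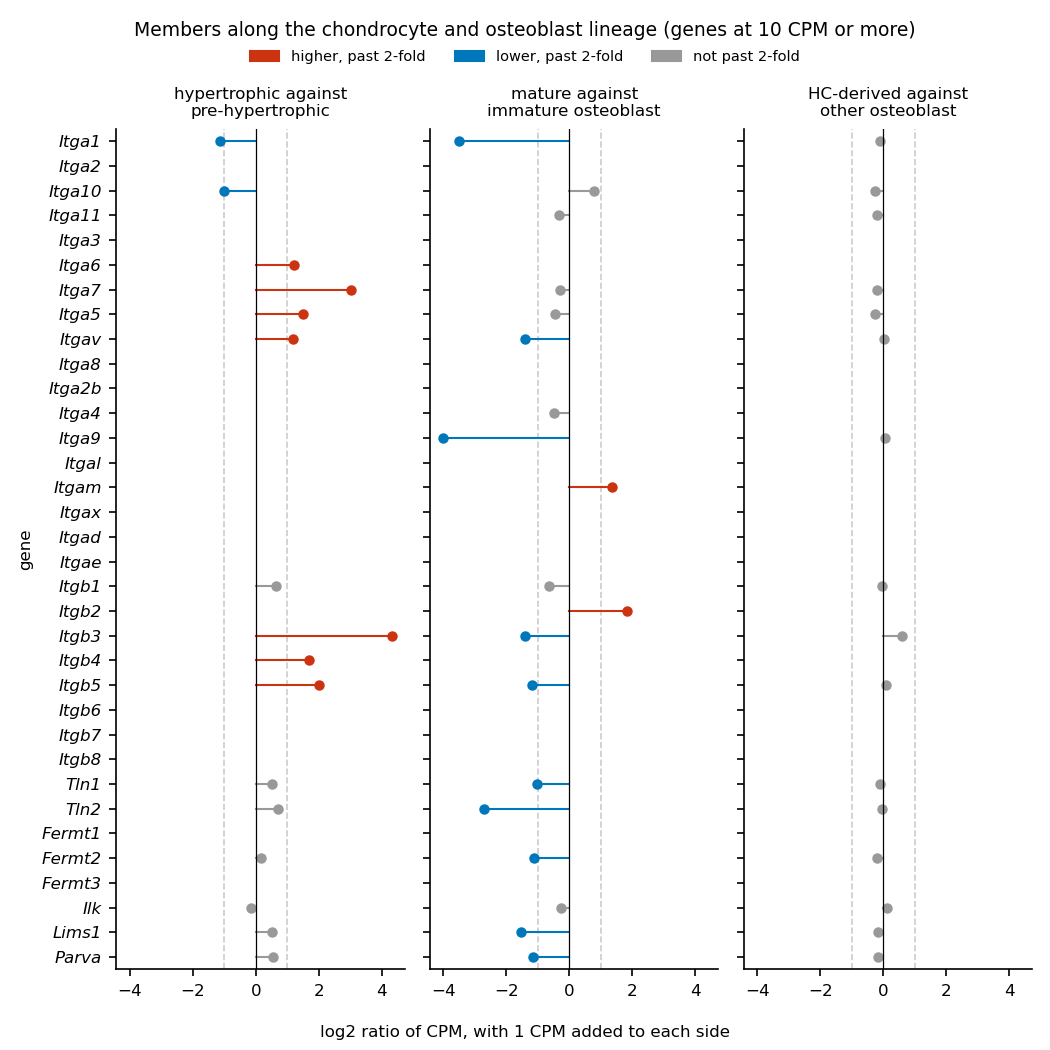
Log2 ratio of CPM, with 1 CPM added to each side (x axis), of each gene (y axis) in HCs against pre-hypertrophic chondrocytes, mature against immature osteoblasts and HC-derived against other osteoblasts; colours as for the cell groups. Itgb3 is the farthest right in HCs (4.31), Itga9 the farthest left in mature osteoblasts (-4.01), and all HC-derived points lie within 1 of 0.

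Endothelial cells held high levels of subunits that bind collagen, laminin and fibronectin. Of 24 genes compared with all other cells, 12 were higher and 8 lower past 2-fold, where 21.1% of all genes were higher and 15.0% lower, or 36.1% in either direction. For all genes the median log2 ratio was 0.12, and for the 24 genes 0.81. Itga2 was at 116 against 2.64 CPM, 43.8-fold (38.7 to 49.6) higher, and Itga3 at 20.9 against 0.596 CPM, 35.1-fold (26.9 to 46.3) higher. Itga6, Itgb4, Itga8, Itga9 and Itga5 were 7.25-fold, 7.63-fold, 7.06-fold, 6.96-fold and 4.66-fold higher, and Fermt2 5.11-fold. Itgb5 stood among the lower genes, at 5.41 against 38.04 CPM, with Itga10 and the blood cell genes.

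The 2 cell types of the vessel wall carried different receptors. Between endothelial cells and smooth muscle cells or pericytes, 14 of 22 genes were past 2-fold, where 26.6% of all genes compared were, counted in either direction. The median log2 ratio was -0.51 over the 22 genes and -0.01 over all genes. Itga2 was 30.1-fold (11.7 to 111) higher in endothelial cells and Itga6 5.85-fold (4.41 to 7.93) higher, and Itga3, Itga5, Itga9 and Itgb4 were the other genes higher there. Itga7 was 32.02-fold (21.8 to 48.1) lower, Itgb5 16.9-fold (11.9 to 24.1) lower and Itga1 10.9-fold (9.88 to 12.1) lower, with Itga4, Itga10, Itgal, Tln2 and Ilk also lower. The call of Itgal rests on 11 UMIs in smooth muscle cells or pericytes and stayed past 2-fold in 2 of 9 alternative settings. Ilk was at 50.9 against 178 CPM, 3.499-fold (2.94 to 4.15) lower. Itgb1, Fermt2 and Itgav differed little, at 1.12-fold, 1.07-fold and 1.11-fold lower. The interval of Itgb4, 24.2-fold higher, runs from 4.30 to 960.3, because 1 Itgb4 UMI was found in the 99 smooth muscle cells or pericytes.

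Within the endothelial class, 73 cells formed a cluster of their own led by Eln, Stmn2 and Gja4. There Itgb4 was at 129 CPM (94 UMIs) and Itgb3 at 31.7 CPM (23 UMIs), against 14.8 and 6.18 CPM in the other 740 endothelial cells. Itga2 and Itga6 were the other way round, at 48.2 against 121 CPM and 151 against 286 CPM. The fibroblasts also fell into 2 clusters with different receptors: the 161 cells led by Mfap5 and Tnmd held 166 CPM of Itga6, 27.9 CPM of Itgb4 and 33.8 CPM of Itgb3, and the 116 cells led by Aspn and Postn held 20.9, 0 and 2.72 CPM. Itga11 was at 26.3 CPM in the former and 117 CPM in the latter. These clusters too were singled out after their values were seen.

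Osteoclasts were set apart by Itgav. Of 23 genes compared with all other cells, 6 were higher and 9 lower past 2-fold, where 11.8% of all genes were higher and 20.9% lower, or 32.7% in either direction. For all genes the median log2 ratio was 0.03, and for the 23 genes -0.23. Itgav was at 413 against 54.4 CPM, 7.59-fold (7.18 to 8.01) higher, and Fermt3, Itgb2, Itgax, Tln1 and Itgb3 were 2.76-fold, 2.75-fold, 3.096-fold, 2.40-fold and 2.48-fold higher. Itgax was not spread over all osteoclasts: the cluster of them led by Ctsk held 1.02 CPM (1 UMI). Fermt2, Parva, Itga10 and Itga1 were 30.8-fold, 23.7-fold, 17.1-fold and 15.3-fold lower.

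Osteoclasts arise from the monocyte lineage but were not compared with monocytes. The next comparison set osteoclasts against macrophages. Between these classes 3 of 18 genes were higher in osteoclasts and 6 lower past 2-fold, where 5.31% of all genes were higher and 13.3% lower, or 18.7% in either direction. The median log2 ratio was -0.50 over the 18 genes and -0.01 over all genes. Itgb3 was at 14.8 CPM (11.2 to 19.2) in osteoclasts and 1.77 CPM (0.651 to 3.86) in macrophages, 8.34-fold (3.60 to 23.7) higher, and Itgav 2.14-fold (1.96 to 2.35) higher. Itgb7 was the other higher gene, at 16.3 against 4.73 CPM, while monocytes held 119 CPM. Itga9, Itgal, Itgb5, Itgax and Itga5 were 17.1-fold, 10.02-fold, 6.50-fold, 4.76-fold and 2.15-fold lower in osteoclasts. Itgad had no UMI in osteoclasts, which allows up to 0.778 CPM. Itgb2, Fermt3 and Tln1 were nearly level, at 101 against 108, 112 against 129.7 and 258 against 238 CPM. Of 12 macrophage markers, 9 reached 10 CPM in osteoclasts and they summed to 1603 CPM, against 9651 CPM in macrophages, and 2 were at 0 in osteoclasts. The macrophages of this comparison include the 65 cells led by H2-Eb1, H2-Aa and Cd74, which may be dendritic cells.

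The osteoclasts formed 3 clusters, among which Itgb3 differed more than Itgav. In the cluster of 37 cells led by Ctsk, Acp5 and Atp6v0d2, Itgb3 was at 35.8 CPM (35 UMIs), against 4.82 CPM (6 UMIs) in 64 cells and 9.80 CPM (16 UMIs) in 53 cells. Itgb7 was at 34.8 CPM there against 8.03 and 11.6 CPM, and Itga2 at 17.4 CPM against 0.803 and 0.613 CPM. Itgax went the other way, at 1.02 CPM (1 UMI) there against 20.9 CPM (26 UMIs) and 7.35 CPM (12 UMIs). Itgav was at 496, 444 and 338 CPM in the same order. Top2a was found in 21.6%, 50% and 94.3% of their cells, again in that order. Values of the whole osteoclast class are thus not those of resorbing cells alone. These clusters were singled out after their values were seen, and they are parts of 1 library.

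Leukocytes carried their own beta subunits and kindlin. Of 21 genes compared with all other cells, 6 were higher and 10 lower past 2-fold, where 16.0% of all genes were higher and 21.1% lower, or 37.1% in either direction. For all genes the median log2 ratio was 0.12, and for the 21 genes -0.94. The higher genes were Itgal, at 71.9 against 3.55 CPM, Itgam, at 106 against 7.20 CPM, Itgb2, at 116 against 9.88 CPM, Itgb7, Fermt3 and Itga4. Not all leukocyte classes shared these beta subunits. Itgb2 gave the largest share of beta subunit UMIs in neutrophils and monocytes, and Itgb7 in plasmacytoid dendritic cells. In the other leukocyte classes it was Itgb1, with 74.5% in B cells and 66.1% in promyelocytes. Itgb7 gave 1.01% in B cells and 0.618% in neutrophils. Fermt2 was 22.7-fold (19.5 to 26.5) lower, Parva 19.2-fold (15.4 to 24.4) lower and Itga10 15.8-fold (12.9 to 19.6) lower. Itgb1 was also lower, at 116 against 266 CPM, and Tln1, Lims1 and Ilk were within 2-fold. The comparisons of the 5 groups share cells, since each group is part of the rest of the others.

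Lists of 30 other cytoplasmic partners, 18 regulators and 35 ligands (33 of them found) were read in the same way, against the shares of all genes given above. The medians over all genes compared were -0.42 in chondrocytes, -0.15 in osteoblasts, 0.12 in endothelial cells, 0.03 in osteoclasts and 0.12 in leukocytes on the log2 scale. In endothelial cells 17 of 28 partners compared were higher and 4 lower past 2-fold, with a median log2 ratio of 1.34, among them Arhgef7, an exchange factor at adhesions, at 341 against 18.4 CPM, and Parvb, at 103 against 9.37 CPM. In chondrocytes 2 of 29 partners were higher and 15 lower, with a median log2 ratio of -1.05 and Syk, a kinase of blood cells, at 3.55 against 65.7 CPM. In osteoclasts 11 of 30 partners were higher and 9 lower, with a median log2 ratio of 0.34, and Src, the kinase that osteoclasts need to resorb, was at 92.1 against 6.57 CPM, while Ptk2, the focal adhesion kinase, was at 1.56 against 29.3 CPM. In mature against immature osteoblasts none of 25 partners was higher and 8 were lower, with a median log2 ratio of -0.75 and Tns3 at 30.7 against 136 CPM. In osteoblasts 2 of 29 partners were higher and 9 lower (median log2 ratio -0.27), and in leukocytes 8 of 30 were higher and 11 lower (median log2 ratio -0.46). In HCs against pre-hypertrophic chondrocytes 6 of 23 were higher and 1 lower (median log2 ratio 0.69), with the actin cross-linker Flna at 86.5 against 20.8 CPM. Between HC-derived and other osteoblasts none of 25 partners was past 2-fold (median log2 ratio -0.10, and 0.01 over all genes).

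Of the regulators, Apbb1ip, the adaptor that brings talin to integrins in blood cells, was at 84.6 CPM in leukocytes against 13.3 CPM, where 7 of 15 regulators were higher and 5 lower, with a median log2 ratio of 0.81. Kank3 was at 59.1 CPM in endothelial cells against 2.44 CPM, and 5 of 16 regulators were higher and 3 lower there (median log2 ratio 0.11). In osteoblasts 1 of 15 was higher, Kank2, at 24.3 against 6.59 CPM, and 3 were lower (median log2 ratio -0.49). Skap2 was the regulator past 2-fold between HC-derived and other osteoblasts, at 63.1 against 26.9 CPM, the others among 14 being inside 2-fold (median log2 ratio 0.02).

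In HCs 11 of 19 ligand genes compared were higher than in pre-hypertrophic chondrocytes and 4 lower past 2-fold, with a median log2 ratio of 1.15 against 0.49 over all genes. Among the higher ones were Spp1 (osteopontin), at 15454 against 633 CPM, and Ibsp (bone sialoprotein), at 4084 against 164 CPM, both ligands of Itgav with Itgb3 or Itgb5. In endothelial cells Icam2, a ligand of LFA-1, was at 245 against 5.13 CPM and the basement membrane gene Col4a1 at 2888 against 81.7 CPM, with 12 of 27 ligand genes higher and 12 lower (median log2 ratio 0.06). In macrophages Vcam1, a ligand of Itga4 and Itga9, was at 464 CPM, and in osteoclasts at 35.03 CPM. Postn, a matrix protein of the periosteum, was lower in HC-derived osteoblasts, at 53.9 against 440.4 CPM. In mature against immature osteoblasts 5 of 24 ligand genes were higher and 11 lower (median log2 ratio -0.95, and -0.43 over all genes). In chondrocytes 4 of 26 ligand genes were higher and 19 lower (median log2 ratio -2.15), and in osteoblasts 8 of 26 were higher and 7 lower (median log2 ratio -0.04). None of 26 ligand genes was higher in osteoclasts and 22 were lower (median log2 ratio -3.90), and in leukocytes 1 of 26 was higher and 20 lower (median log2 ratio -3.60). Col1a1, Col2a1, Dmp1, Mepe and Postn are also marker genes of the classes, so their differences between classes are no independent result.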

How the data were processed

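Cells of 2 tibiae of 1 mouse, freed with collagenase and dispase, were sequenced by 10x Chromium. The deposited values are whole-number counts of UMIs per gene and barcode, which the authors made with Cell Ranger 3.1.0 on the mm10 genome with tdTomato and WPRE added, and the annotation release was not given in the sources used here. Barcodes with at least 1600 genes, at most 10% mitochondrial and at most 50% ribosomal UMIs were kept. They were clustered with scanpy 1.11.5 (2000 variable genes without the 34 genes, 30 principal components, 20 neighbours, Leiden resolution 1, and 0.6 within osteoclasts and macrophages). Doublets were marked with Scrublet (expected rate 10%) in 588 of 14181 barcodes and were not left out for that reason. Among the 8256 cells kept 460 were marked. Of the 221 cells without a name 140 were marked, and these cells are part of all other cells kept in the comparisons. Clusters were named from marker lists, and the naming limits were set after the clusters were seen, so classes may differ from those of the study, which left out the Ptprc-positive clusters kept here. The 657 monocytes formed 2 clusters, and neither had a listed monocyte marker among its 10 leading genes. Cells with more than 14 WPRE UMIs counted as HC-derived. UMIs were summed per class as CPM, with exact Poisson 95% intervals, and a ratio was called past 2-fold, with 1 CPM added, where either side reached 10 CPM. Cells are not replicates, so no test was run. For shares of cells, each cell was thinned to 5000 UMIs. The 2-fold rule and the interval of a ratio were tested on simulated class sums of mature and immature osteoblasts. The other steps were not tested in this way. The 34 genes, marker lists and partner, regulator and ligand lists were chosen with earlier results of these data known. Genes are named in the text where they were highest in a class, past 2-fold, or leading in a list. Promoters are from RefSeq, and exon overlaps from GENCODE M21. The P56 sample of the study was not analysed here.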

Additional observations from a re-analysis of the deposited data

Results flagged for a closer look

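The count table also held sequences that no comparison used. EGFP, a fluorescent protein that the labels of this mouse do not name, had 58 UMIs in the cells kept, above the limit of 3 counts that a count of 0 allows, in 51 cells. CRE, the recombinase of the Col10a1Cre allele, had 4 UMIs in 4 cells, also above that limit.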

How the results depend on the processing

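No paired analysis was possible because the 4 deposited entries are 1 library in 1 count table, and for the same reason no entry could be left out. Of the values that answer a comparison, 103 stayed within 1.5 times the reported count under the alternatives and 7 moved. With 10 CPM in place of 1 CPM added to each side of a ratio, the genes past 2-fold fell from 16 to 9 in osteoblasts, from 15 to 9 in osteoclasts and from 12 to 7 between mature and immature osteoblasts. Without the limit of 10 CPM, 16 genes in place of 9 were past 2-fold between HCs and pre-hypertrophic chondrocytes, and 1 in place of 0 between HC-derived and other osteoblasts. That last count was also 1 with at most 5% mitochondrial UMIs per cell, and 1 within mature osteoblasts, an alternative chosen after seeing the data. The log2 ratio of Itgb2 between mature and immature osteoblasts, 1.83 as reported, was -1.30 with the 34 genes allowed to draw the clusters and -1.29 with at most 5% mitochondrial UMIs, and the cause was not tested. Of 124 calls of single genes past 2-fold, 123 kept their direction in every alternative that gave a value, Itgb2 being the exception, and 87 stayed past 2-fold in all of them. The call of Itgam between mature and immature osteoblasts had a value in 2 alternatives and stayed past 2-fold in 1. With at most 5% mitochondrial UMIs, the comparisons of osteoclasts with all other cells and with macrophages, and of endothelial cells with smooth muscle cells or pericytes, gave no value. In that setting the endothelial class was a cluster of 39 cells, and 236 cells led by Fabp4, Emcn and Plvap stayed without a name among all other cells. With 1 library the spread between mice is not known, and depth limits genes near 10 CPM: a class of 99 cells held about 1 UMI for each CPM.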
